A study of Drosophila melanogaster with 9 samples.

Results

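Genes whose transcripts moved the same way in STAT supercompetitors and in Myc supercompetitors, relative to control cells that expressed GFP alone, are described here. The average of the *hop* group and the *Myc* group, each with a weight of 0.5, was compared with the *gfp* group in 1 fit of all 9 libraries. A gene was counted when its adjusted p was under 0.05, its fold change was at least 1.5 and its difference from *gfp* had the same sign in both supercompetitors. By this rule 250 of 12741 tested genes were counted (1.96%), of which 116 were higher in the supercompetitors (0.91%) and 134 were lower (1.05%).

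All cells came from wing imaginal discs of wandering larvae and were sorted for GFP, which *dpp-gal4* drives in a stripe along the anterior side of the compartment boundary. The control larvae were w/+; +/+; dpp-gal4, uas-gfp/+. STAT supercompetitors were w/+; +/+; dpp-gal4, uas-gfp/uas-hop, and Myc supercompetitors were w/+; +/+; dpp-gal4, uas-gfp/uas-myc. These genotypes are as labelled, and the study's text writes w/w in place of w/+, which was not resolved. There were 3 libraries per genotype, named *gfp* 1 to 3, *hop* 1 to 3 and *Myc* 1 to 3, each from pooled discs, at least 60 per genotype. Both supercompetitor genotypes carry a UAS transgene on the chromosome that is wild type in the control, so whatever the transgenes and their backgrounds share cannot be told apart from the supercompetitor state. Nothing states that the libraries of a genotype came from separate crosses, so p-values measure the spread between these libraries, which may be technical.

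Supercompetitors are cells that eliminate wild-type neighbours when the 2 populations meet in a growing epithelium. In *Drosophila*, Hopscotch (*hop*) is the Janus kinase that activates the transcription factor Stat92E, which relays cytokine signals and controls growth, patterning and immunity. Myc, encoded by *dm*, is a basic helix-loop-helix transcription factor that raises ribosome production and biosynthesis, and cells with more Myc outcompete cells with less.

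The libraries held 5110634 to 6104490 counts, of which ribosomal RNA genes took 20.8 to 27.2% and mitochondrial genome genes 3.09 to 5.19%. Levels are given as CPM, counts relative to the total of each library after TMM scaling. *hop* lay at 62.6, 80.0 and 72.4 CPM in *gfp* 1, 2 and 3, at 1360, 1145 and 1432 in the *hop* libraries and at 58.6, 73.6 and 64.5 in the *Myc* libraries. *dm* lay at 259, 237 and 233 CPM in *gfp*, at 351, 280 and 336 in *hop* and at 774, 538 and 602 in *Myc*, so each targeted gene was highest in the genotype labelled with it. *hop* moved in opposite directions and was not counted, with *brk*, *C15*, *CG17684*, *Cpr49Ah* and *SK*. *dm* was counted as higher, although its level in *Myc* includes the transgene. The summed level of *dpp*, *ptc* and *ci*, which mark the sorted domain and its compartment, was 1490 to 1680 CPM in *gfp*, 1640 to 2090 in *hop* and 1570 to 1600 in *Myc*. On the first principal component, which held 60.5% of the variance of the 500 most variable genes, *Myc* 1 stood apart: with the *gfp* average set to 0 and the *hop* average to 1, its position was 0.759, while *Myc* 2 and 3 lay at -0.234 and -0.0575. To a smaller extent *gfp* 1 was also displaced toward *hop*, at 0.222, while *gfp* 2 and 3 lay at -0.0968 and -0.126.

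The median pooled log2 fold change was 0.81 over the 116 higher genes, -1.03 over the 134 lower genes and -0.03 over all genes tested. These values chose the genes and are a description. Both genotypes passed 1.5-fold in 55 of the higher and 88 of the lower genes, and the smaller of the 2 fold changes was under 1.2 in 8 and 9. Taken alone, *hop* against *gfp* passed the adjusted p in 76 of the higher genes, against 3.16% of all tested genes, and in 117 of the lower genes, against 3.37%. *Myc* against *gfp* passed in 71 of the higher genes, against 2.35%, and in 25 of the lower genes, against 0.502%. The rule used these contrasts, so the counts are given as a description. Of the higher genes 42, and of the lower genes 26, share exon bases with another annotated gene or element, and since the strand setting of the counting is not given in the sources used here, their counts are uncertain. All 6 supercompetitor libraries lay above all 3 *gfp* libraries in 83 of the 116 higher genes, against 3.32% of all tested genes, and below them in 95 of the 134 lower genes, against 4.1%. The rule chose the genes on the difference between these same libraries, so nothing is read from these shares. *Myc* 1 lay beyond both other *Myc* libraries, in the direction of the call, in 65 of the higher genes (56.0%) and 97 of the lower genes (72.4%), against 36.1% and 39.3% of all genes. Its part in the result was not tested beyond leaving it out, which gave 148 higher genes, 110 of them shared, and 142 lower genes, 109 of them shared. The pooled contrast and the *hop* and *Myc* values beside it rest on the same 3 *gfp* libraries, so the genotypes are not independent of each other.

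**Figure D1:**
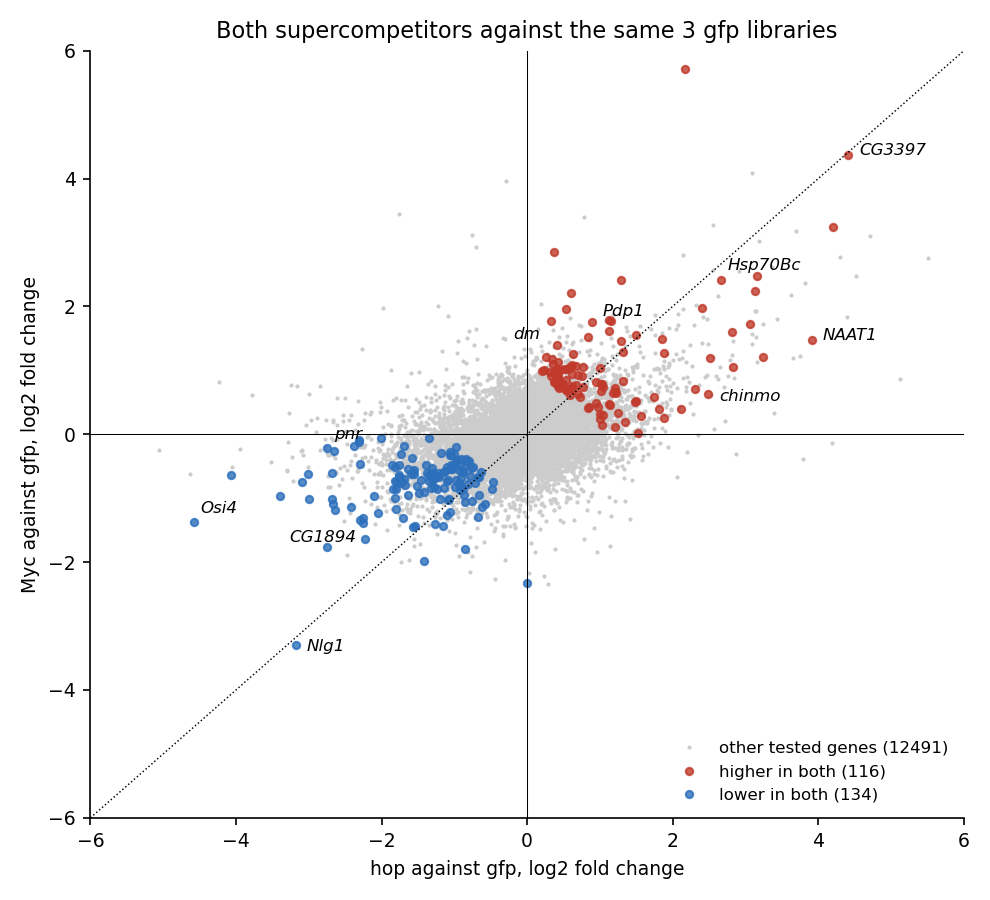
Log2 fold change of *Myc* against *gfp* (y axis) over that of *hop* against *gfp* (x axis) for tested genes, with the 116 genes higher in both in red and the 134 lower in both in blue. Both axes share the 3 *gfp* libraries, 7 genes lie outside the plotted range, and the dotted line marks equal fold changes. Lower genes lie mostly farther along the *hop* axis, and *Nlg1* and *CG3397* lie near the line.

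The counts depended on the control libraries. Without *gfp* 1 the test counted 44 higher and 32 lower genes, without *gfp* 2 it counted 12 and 4, without *gfp* 3 it counted 11 and 5, and without *hop* 3 it counted 68 and 46. In all 9 fits that left out 1 library, all 250 genes kept their sign, and 89 of the higher and 118 of the lower genes kept a fold change of at least 1.5. The rule chose the genes on these same libraries, so nothing is read from the kept signs. Counted in all 9 of these fits were the higher genes *CG30428*, *CG3523*, *Mpcp*, *Pdp1*, *Sam-S*, *chinmo*, *dm* and *sesB* and the lower genes *CG1894* and *Rim*. A further test asked whether the fold change itself exceeded 1.5 (glmTreat), and 5 higher genes and 1 lower gene passed it.

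**Figure D2:**
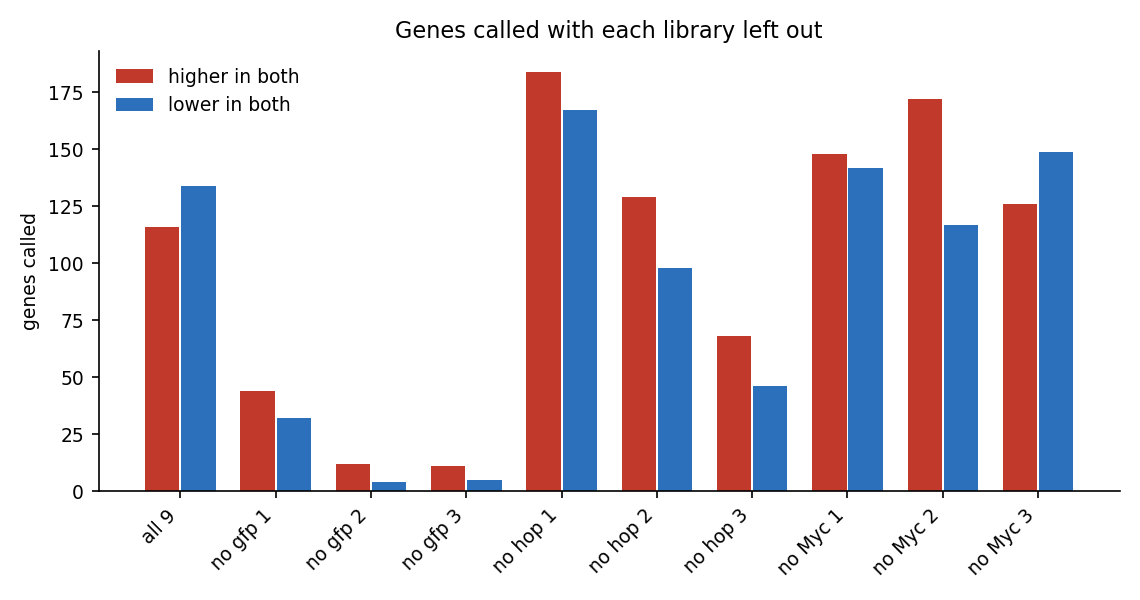
Number of genes counted as higher (red) or lower (blue) in both supercompetitors with all 9 libraries and with each library left out (x axis). The bars are shortest without *gfp* 2 (12 and 4) and without *gfp* 3 (11 and 5).

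*Pdp1*, *mnd*, *mld*, *CG3523*, *Mpcp* and *Nop60B* were higher than the control in every supercompetitor library. All were chosen with results of these libraries known, *mnd*, *mld*, *Mpcp* and *Nop60B* being named by the study in both genotypes, so their direction is not independent evidence. *Pdp1*, a PAR-domain basic leucine zipper transcription factor of the circadian clock, lay at 31.1, 32.1 and 32.6 CPM in *gfp*, at 51.1, 65.9 and 60.6 in *hop* and at 133, 82.7 and 107 in *Myc*. The *gfp* libraries were nearly equal, the *hop* libraries stood above them and the *Myc* libraries stood above those, with no overlap. The pooled log2 fold change was 1.32 ± 0.16 (SE, adjusted p = 0.00121, edgeR). Of the 10 clock genes tested, *vri*, a repressor of the same leucine zipper family, was the other that passed the adjusted p (0.55 ± 0.14, adjusted p = 0.0419), and the list's median was 0.14. Over all genes tested, 1.92% passed as higher and 1.23% as lower by the same rule. *vri* had log2 fold changes of 0.81 in *hop* and 0.30 in *Myc*, and its *Myc* libraries (65.8 to 85.6 CPM) overlapped the control (56.7 to 72.3 CPM).

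*mnd*, or minidiscs, encodes an amino acid transporter that imaginal discs need for growth. It lay at 51.4, 62.3 and 59.9 CPM in *gfp*, at 113, 84.1 and 85.9 in *hop* and at 124, 106 and 99.7 in *Myc*. Library 1 was the highest of each supercompetitor and the lowest of the control, and the groups of *gfp* and supercompetitor libraries did not overlap. The pooled log2 fold change was 0.81 ± 0.13 (adjusted p = 0.00523), and the call was lost without *gfp* 2 or *gfp* 3.

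*mld*, or molting defective, encodes a zinc finger protein needed for ecdysone synthesis. It lay at 302, 260 and 248 CPM in *gfp*, at 450, 368 and 494 in *hop* and at 482, 357 and 407 in *Myc*. The supercompetitor libraries were all above the control libraries and overlapped each other. The pooled log2 fold change was 0.66 ± 0.12 (adjusted p = 0.00922), a call lost without *gfp* 2 or *gfp* 3, and *mld* shares exon bases with *Syx18*, so its counts are uncertain.

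*CG3523* (now *FASN1*) encodes fatty acid synthase, which builds palmitate. It lay at 153, 138 and 144 CPM in *gfp*, at 283, 344 and 377 in *hop* and at 282, 213 and 197 in *Myc*. All 6 supercompetitor libraries exceeded the control, and *Myc* 1 nearly reached the lowest *hop* library. The pooled log2 fold change was 0.94 ± 0.13 (adjusted p = 0.00238).

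*Mpcp* (now *Mpcp2*) encodes the mitochondrial phosphate carrier, which supplies phosphate for ATP synthesis. It lay at 235, 228 and 249 CPM in *gfp*, at 334, 332 and 400 in *hop* and at 497, 433 and 545 in *Myc*. The 3 genotypes did not overlap, with *hop* in the middle, and the pooled log2 fold change was 0.82 ± 0.10 (adjusted p = 0.00164). *Nop60B*, the pseudouridine synthase of the nucleolar particles that modify ribosomal RNA, showed the same order at 137, 152 and 154 CPM in *gfp*, 167, 204 and 221 in *hop* and 306, 267 and 266 in *Myc*. Its pooled log2 fold change was 0.67 ± 0.11 (adjusted p = 0.00523), lost without *gfp* 2 or *gfp* 3, and its exons share bases with snoRNA genes.

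**Figure D3:**
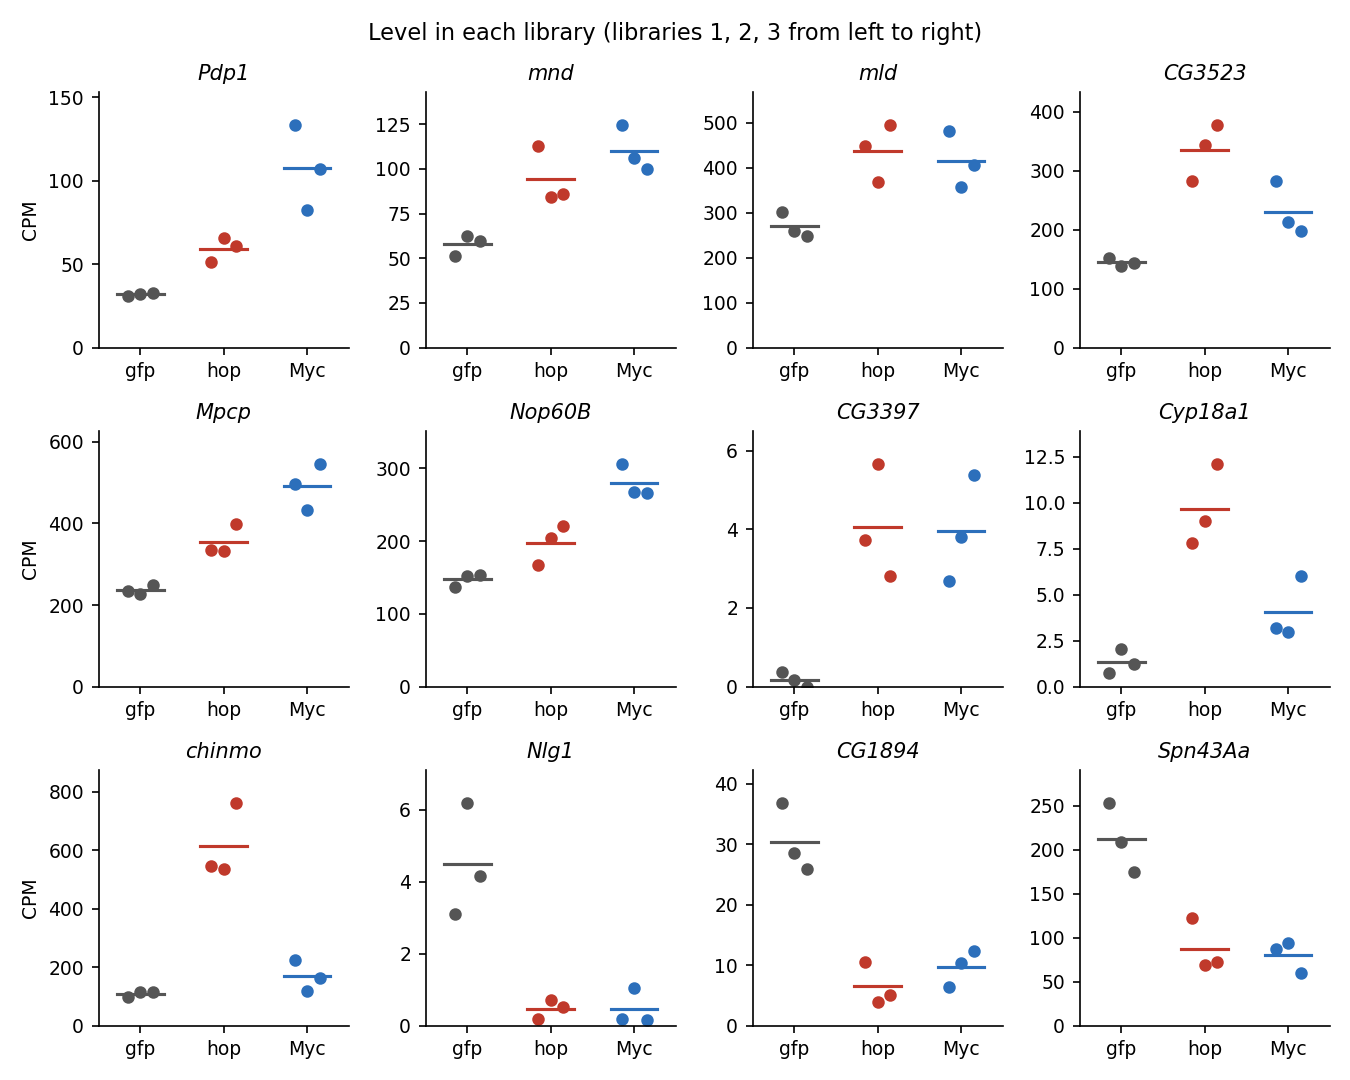
Level of 12 genes in each library in CPM (linear y axes from 0), with libraries 1, 2 and 3 of *gfp*, *hop* and *Myc* from left to right and a bar at the mean of each group of 3. In each gene the 6 supercompetitor libraries lie on 1 side of the 3 *gfp* libraries, and *chinmo* and *Cyp18a1* are highest in *hop* while *Pdp1*, *Mpcp* and *Nop60B* are highest in *Myc*.

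Genes of cytosolic ribosomal proteins were higher as a group. Of 85 tested, 57 passed the adjusted p in the higher direction, where 1.92% of all tested genes passed. None passed in the lower direction, where no member had an unadjusted p under 0.05 in edgeR and 0 passed in DESeq2. All 6 supercompetitor libraries lay above the control in 31 of the 85, against 3.32% of all tested genes. The median pooled log2 fold change was 0.47, with medians of 0.32 in *hop* and 0.63 in *Myc*, beside -0.03, -0.02 and -0.04 over all genes. *RpS3* lay at 2052, 2080 and 2008 CPM in *gfp*, at 2464, 2677 and 3065 in *hop* and at 3147, 3333 and 3355 in *Myc*, with no overlap between genotypes. Its pooled log2 fold change was 0.55 ± 0.09 (adjusted p = 0.00523). *RpL13*, *RpL9* and *RpS5a* had pooled log2 fold changes of 0.53, 0.56 and 0.54. *RpS5a* has a related copy in the genome, and whether reads were shared between them was not tested. *RpL9* and 8 other members differed between the genotypes, all 9 of them higher in *Myc*.

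The number of ribosomal protein genes that passed fell to 12 without *gfp* 1 and to 0 without *gfp* 2 or *gfp* 3, where 73 and 81 of 85 had an unadjusted p under 0.05 in the higher direction in edgeR. The median log2 fold change stayed between 0.432 and 0.575 in the fits that left out 1 library. With *hop* and *Myc* libraries taken as 1 group of 6, none passed after adjustment and 77 had an unadjusted p under 0.05, while DESeq2 with separate groups passed 67.

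Nucleolar ribosome assembly genes had a median of 0.30, with 22 of 23 members above 0, and 4 passed, against 1.92% of all genes. Besides *Nop60B* these were *CG8801* (now *Non1*, 0.53 ± 0.10), a GTPase of the large subunit's assembly, *CG4364* (0.51 ± 0.12) and *nop5* (0.40 ± 0.10), a core protein of the particles that methylate ribosomal RNA. Each of these 3 had a larger log2 fold change in *Myc* (0.64, 0.68 and 0.55) than in *hop* (0.43, 0.35 and 0.25), a difference that did not pass its own test (adjusted p = 0.267, 0.141 and 0.136). Of the 23, 5 did differ between the genotypes, all 5 farther up in *Myc*. Of 71 genes of mitochondrial ribosomal proteins, a family chosen after its values were seen, 2 were counted as higher, against 0.91% of all tested genes, and the median was 0.01.

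Mitochondrial carriers and enzymes were among the higher genes. Of 12 carriers tested, *Mpcp* and *sesB* passed, against 1.92% of all genes, and the median was 0.23. *sesB*, the ADP/ATP translocase of the inner membrane, lay at 488, 489 and 510 CPM in *gfp*, at 542, 693 and 737 in *hop* and at 1056, 978 and 999 in *Myc*. The genotypes did not overlap, *Myc* stood clearly highest, and the pooled log2 fold change was 0.72 ± 0.10 (adjusted p = 0.00323). *sesB* shares exon bases with its neighbour *Ant2*, so counts could be split between them. Of 74 respiratory chain subunits, 4 passed, all higher, against 1.92% of all genes, with a median of 0.21. They were *l(1)G0230* (now *ATPsyndelta*, 0.61 ± 0.11) and *CG1746* (now *ATPsynC*, 0.55 ± 0.11) of the ATP synthase, *CG3731* (now *UQCR-C1*, 0.56 ± 0.13) of complex III and *CG8680* (now *ND-13A*, 1.40 ± 0.30) of complex I, which shares exon bases with *CG4230*. *CG8680* had log2 fold changes of 2.21 in *Myc* and 0.60 in *hop*, and its *hop* libraries (11.7 to 22.4 CPM) overlapped the control (10.1 to 15.5 CPM).

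Enzymes of the tricarboxylic acid cycle were picked out after their values were seen, so their direction is a description. *kdn*, the citrate synthase, had a pooled log2 fold change of 0.69 ± 0.13, *l(1)G0156* (now *Idh3a*) had 0.62 ± 0.12 and *CG6439* (now *Idh3b*), another subunit of the isocitrate dehydrogenase, had 0.67 ± 0.13. *Mdh2*, the mitochondrial malate dehydrogenase, had 0.74 ± 0.16, and *CG1516* (now *PCB*), the pyruvate carboxylase that refills the cycle, had 0.83 ± 0.15. All 5 were counted among the 116 higher genes, a group of 0.91% of all tested genes, and were lost without any 1 of the *gfp* libraries. The other enzymes of the cycle were not counted, so nothing is read about the cycle as a whole. Of 13 glycolysis genes none passed in edgeR, with unadjusted p under 0.05 for 2 in the higher and 1 in the lower direction and 1 passing in DESeq2, and the median was 0.12.

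Amino acid transporters had a median of 0.39 over 19 tested, and 4 passed, all higher, against 1.92% of all genes. The list was mixed, with 12 of 19 above 0 and an unadjusted p under 0.05 in edgeR for 8 in the higher and 3 in the lower direction. *NAAT1*, a nutrient amino acid transporter, lay at 0.549, 0.515 and 0.615 CPM in *gfp*, at 11.0, 6.53 and 8.76 in *hop* and at 1.61, 0.422 and 2.61 in *Myc*. The *hop* libraries stood far above the control, whereas *Myc* 2 lay below it, and the genotypes differed by 2.44 (adjusted p = 0.0105). *path*, a transporter of the lysosomal and plasma membranes, showed the reverse order with log2 fold changes of 0.92 in *Myc* and 0.20 in *hop* (difference -0.72, adjusted p = 0.00504). *JhI-21*, a relative of *mnd*, had 0.60 in *Myc* and 0.46 in *hop* and shares exon bases with *PLCXD*. *slif*, the slimfast transporter that feeds TOR signalling, had a pooled value of -0.64 and did not pass (adjusted p = 0.207).

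In lipid metabolism 3 of 19 genes passed, all higher, against 1.92% of all genes, and the median was 0.07. Besides *CG3523* these were *Desat1*, the acyl-CoA desaturase that makes monounsaturated fatty acids, and *CG17374* (now *FASN3*), another fatty acid synthase. *Desat1* lay at 125, 118 and 108 CPM in *gfp*, at 165, 166 and 209 in *hop* and at 196, 186 and 196 in *Myc*, with a pooled log2 fold change of 0.67 ± 0.11 (adjusted p = 0.00523). All supercompetitor libraries exceeded the control and the 2 genotypes overlapped. *CG17374* lay at 1.89 to 3.29 CPM in *gfp*, at 12.4 to 27.0 in *hop* and at 2.74 to 9.47 in *Myc*, so *Myc* overlapped the control. *ACC* and *ATPCL*, which supply malonyl-CoA and acetyl-CoA to fatty acid synthase, had pooled values of -0.01 and -0.02.

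One-carbon metabolism, which provides methyl groups and nucleotide precursors, had 3 of 10 genes passing, all higher, against 1.92% of all genes, and a median of 0.48. *Sam-S*, the S-adenosylmethionine synthetase, lay at 248, 258 and 262 CPM in *gfp*, at 288, 331 and 352 in *hop* and at 604, 552 and 576 in *Myc*. The *hop* libraries lay a little above the control and the *Myc* libraries well above both, and the pooled log2 fold change was 0.75 ± 0.09 (adjusted p = 0.00161). *Ahcy13* (now *Ahcy*), which hydrolyses S-adenosylhomocysteine, had 1.01 in *Myc* and 0.23 in *hop*. *Nmdmc*, a mitochondrial folate enzyme, had 1.08 and 0.62 and shares exon bases with *Mst85C*. Of 16 genes of ATF4, ER stress and TOR brakes, *Thor*, the translation inhibitor 4E-BP (0.91 ± 0.21, adjusted p = 0.0296), and *asparagine-synthetase* (now *AsnS*, 1.18 ± 0.29, adjusted p = 0.0386) passed as higher, against 1.92% of all genes.

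**Figure D4:**
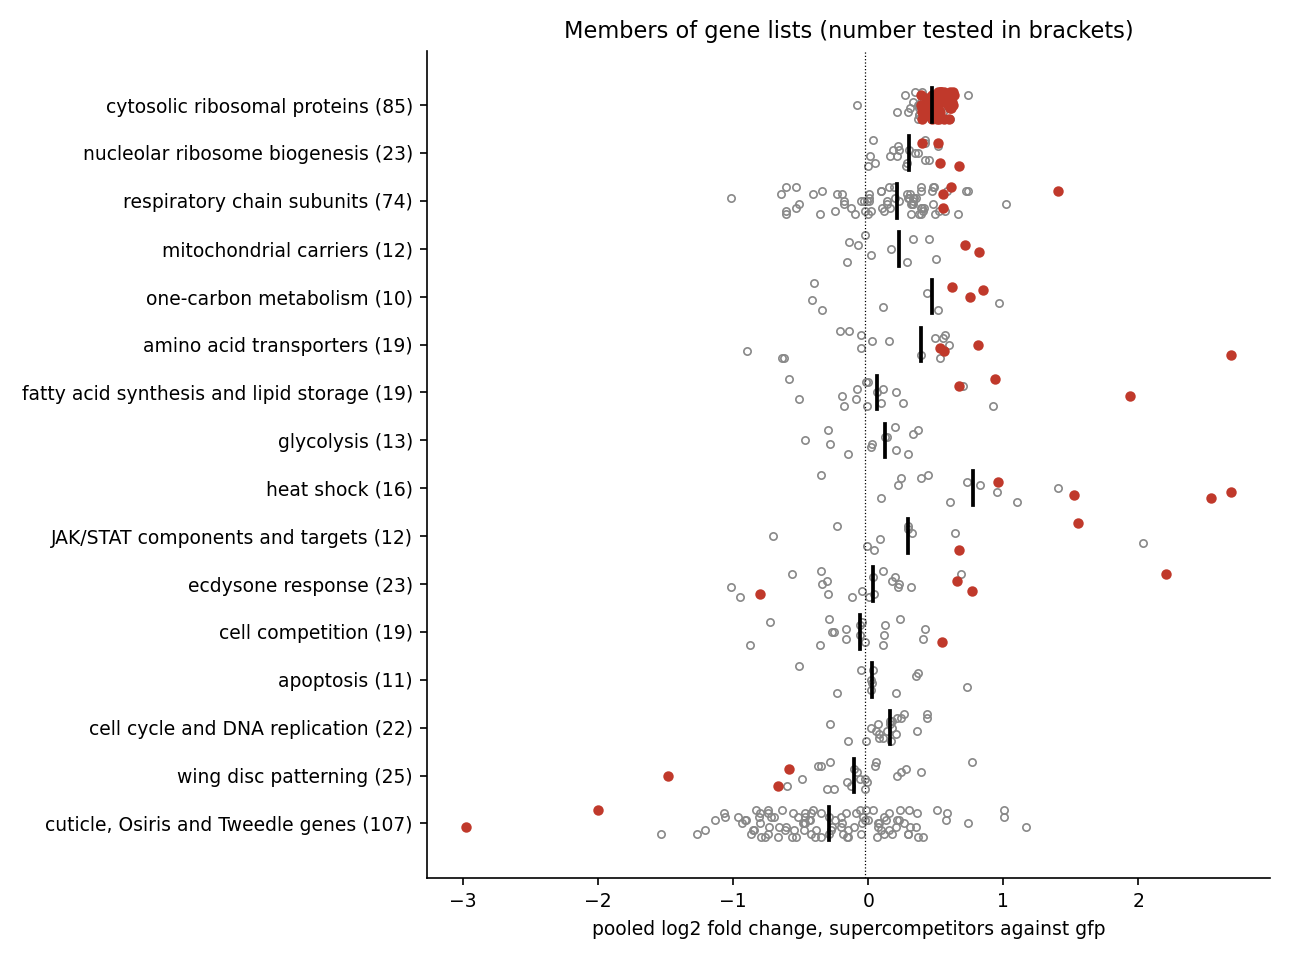
Pooled log2 fold change (x axis) of each tested member of 16 gene lists, filled red where the member passed the adjusted p with the same sign in both genotypes and open where it did not. The thick bars are list medians and the dotted line is the median of all genes (-0.03), and the ribosomal protein list, with 57 of 85 filled, is the most densely filled.

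Of 16 heat shock genes 4 passed, all higher, against 1.92% of all genes, and the median was 0.78. *Hsp70Bc*, an inducible chaperone gene, lay at 2.19, 2.23 and 2.15 CPM in *gfp*, at 13.0, 17.1 and 11.7 in *hop* and at 19.7, 7.59 and 8.15 in *Myc*. Every supercompetitor library was more than 3 times the control level, and the pooled log2 fold change was 2.54 ± 0.37 (adjusted p = 0.0033). *Hsp70Bbb* (2.69 ± 0.60) and *Hsp70Aa* (1.53 ± 0.33) passed too, whereas *Hsp70Ab*, *Hsp70Ba* and *Hsp70Bb* had 0.61, 0.24 and 0.83 and did not. These 6 genes are near-identical copies, so the assignment of reads to any 1 of them is uncertain. *Hsp67Bc*, a small heat shock protein gene, passed at 0.96 ± 0.22.

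*DnaJ-1*, an Hsp40 co-chaperone gene with no such copy on the list, lay at 442, 449 and 447 CPM in *gfp*, at 1114, 1280 and 1472 in *hop* and at 1193, 544 and 384 in *Myc*. *Myc* 1 reached the *hop* libraries and *Myc* 3 fell below the control, and the gene did not pass (1.10 ± 0.33, adjusted p = 0.131). *Hsp26* and *Hsp68* showed the same spread, with *Myc* 1 at 507 and 641 CPM and *Myc* 3 at 179 and 101. Without *Myc* 1 the number of heat shock genes that passed was 6, and without *gfp* 3 it was 0, with 8 of 16 at an unadjusted p under 0.05.

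Hormone genes were mixed. Of 23 ecdysone response genes, *mld*, *Cyp18a1* and *Hr38* passed as higher and *ImpE3* as lower, against 1.92% and 1.23% of all genes, and the median was 0.04. *Hr38* had log2 fold changes of 1.35 in *hop* and 0.19 in *Myc*, and its *Myc* libraries (21.1 to 23.2 CPM) overlapped the control (17.4 to 21.6 CPM). *Cyp18a1*, which inactivates ecdysone, lay at 0.732, 2.06 and 1.23 CPM in *gfp*, at 7.81, 9.01 and 12.1 in *hop* and at 3.22, 2.95 and 6.03 in *Myc*. The 3 genotypes did not overlap, and the difference between *hop* and *Myc* of 1.23 had a 95% interval of 0.37 to 2.08 (adjusted p = 0.0774). *dib*, a cytochrome P450 of ecdysteroid synthesis, was lower, at 16.3, 15.6 and 24.7 CPM in *gfp*, 9.48, 2.12 and 5.78 in *hop* and 5.90, 6.75 and 10.1 in *Myc*. No supercompetitor library reached the control, and the pooled log2 fold change was -1.51 ± 0.33 (adjusted p = 0.0238), but *dib* shares exon bases with *wit*. *Ilp8*, a relaxin-like hormone that delays pupariation when discs are damaged, had 2.31 in *hop* and 0.71 in *Myc* (pooled adjusted p = 0.00523). It passed alone among 13 genes of JNK and wound output, against 1.92% of all genes, and shares exon bases with *CG7730*.

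Among 12 JAK/STAT components and targets, *chinmo* and *ken* passed as higher, against 1.92% of all genes. *chinmo*, a BTB zinc finger gene that Stat92E activates in other tissues, lay at 98.8, 116 and 114 CPM in *gfp*, at 546, 537 and 760 in *hop* and at 225, 119 and 164 in *Myc*. The *hop* libraries stood far above all others, while *Myc* 2 was just above the highest control library, and the pooled log2 fold change was 1.55 ± 0.19 (adjusted p = 0.00323). *ken*, a repressor of a subset of STAT targets, had 1.04 in *hop* and 0.30 in *Myc*, and *Myc* 2, at 56.9 CPM, was below the control.

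Of 19 genes tied to cell competition, *Myd88*, an adaptor of Toll signalling, passed as higher in edgeR (0.54 ± 0.13, adjusted p = 0.029), against 1.92% of all genes, and the list's median was -0.06. An unadjusted p under 0.05 was found for 3 in the higher and 2 in the lower direction, and DESeq2 passed 2 as higher and 0 as lower. *fwe* and *Xrp1*, which mark loser cells in other settings, had -0.29 and 0.42 and did not pass. Of 11 apoptosis genes none passed in edgeR or in DESeq2, with an unadjusted p under 0.05 for 3 in the higher and 1 in the lower direction. The same held for 22 cell cycle and replication genes, with 3 and 1. Among 27 antioxidant and detoxification genes, *Keap1*, the brake on the Nrf2 factor Cnc, was lower (-0.49 ± 0.12, adjusted p = 0.0405), against 1.23% of all genes, and none passed as higher in edgeR, where 4 had an unadjusted p under 0.05 and 1 passed in DESeq2.

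The lower genes lay at lower levels, with a median of 16.0 CPM over the 9 libraries against 47.5 CPM for the higher genes and 13.3 CPM for all genes tested. *Nlg1*, a neuroligin of synaptic adhesion, lay at 3.11, 6.18 and 4.15 CPM in *gfp*, at 0.186, 0.706 and 0.526 in *hop* and at 0.179, 1.05 and 0.163 in *Myc*. The supercompetitor libraries were all at about 1 CPM or less, and the pooled log2 fold change was -3.24 ± 0.56 (adjusted p = 0.00714), with bases shared with an annotated invader3 element. *CG1894*, at 36.8, 28.5 and 26.0 CPM in *gfp*, 10.6, 3.88 and 5.08 in *hop* and 6.43, 10.3 and 12.4 in *Myc*, was the named lower gene that passed in all fits with 1 library left out (-1.93 ± 0.27, adjusted p = 0.00323). No library of either supercompetitor reached the control.

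Other lower genes with the largest fold changes in both genotypes were *CG15403* (-2.25), *CG33127* (-1.81), *CG3699* (-1.82), *CG4577* (-1.51), *CheB98a* (-1.78), which belongs to a family of chemosensory proteins, *TpnC47D* (-1.49), a troponin C of muscle, and *Ugt37b1* (-1.70), a UDP-glycosyltransferase. Except for *Ugt37b1*, which passed without *gfp* 1, each of these was lost without any 1 of the 3 *gfp* libraries. Some were lost without other libraries too. Of the 9 fits with 1 library left out, *CG3699* passed in 1, *CG4577* in 3 and *CG33127* in 4. *TpnC47D* and *CheB98a* were also lost without *hop* 3. *Osi4* and *Osi6*, members of the Osiris cluster of secretory and cuticle-associated genes, had pooled values of -2.98 and -2.0, and were the 2 of 107 cuticle, Osiris and Tweedle genes that passed, a share near the 1.23% of all genes that passed as lower. The median of that list was -0.29.

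Of 25 patterning genes, *pnr*, *inv* and *caup* passed as lower, against 1.23% of all genes, and none as higher, where 5 had an unadjusted p under 0.05 in edgeR and 0 passed in DESeq2. *pnr*, the GATA factor of the dorsal notum, lay at 42.1, 39.1 and 62.8 CPM in *gfp*, at 4.65, 7.42 and 9.29 in *hop* and at 28.6, 55.9 and 39.4 in *Myc*. *Myc* overlapped the control, so the pooled value of -1.49 rested on *hop*, and *caup*, an Iroquois gene, had -0.98 in *hop* and -0.20 in *Myc*. *inv*, a homeobox gene of the posterior compartment, lay at 79.8, 79.1 and 71.9 CPM in *gfp*, at 59.9, 61.5 and 43.3 in *hop* and at 41.1, 44.9 and 41.7 in *Myc*. The summed posterior markers *en*, *inv* and *hh* were 122 to 133 CPM in *gfp*, 94.6 to 112 in *hop* and 72.1 to 82.7 in *Myc*, and their part in the calls was not tested. In sorted pools, fewer cells of a type and less RNA per cell cannot be told apart.

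The summed markers of other cell types overlapped the control. Summed over 7 hemocyte markers, of which 5 were tested, levels were 81.1 to 91.5 CPM in *gfp*, 86.6 to 102 in *hop* and 69.2 to 88.6 in *Myc*, although *Hml* was higher (0.93) and *Pxn* lower (-1.19). The 5 muscle precursor markers summed to 116 to 155 CPM in *gfp*, 138 to 179 in *hop* and 103 to 147 in *Myc*, with *zfh1* lower (-0.75) and *twi* at -1.18 without passing (adjusted p = 0.0979). Summed neuron markers were 505 to 711 CPM in *gfp*, 519 to 931 in *hop* and 344 to 667 in *Myc*. The ranges of the fat body, trachea and peripodial markers also overlapped between *gfp* and both supercompetitors. The genes that differ by sex (*roX1*, *roX2*, *Sxl* and *Yp1*) summed to 1760 to 1930 CPM in *gfp*, 2230 to 2280 in *hop* and 1550 to 2240 in *Myc*, so the sum stood above the control in *hop*. This sum adds genes of males to genes of females, so it cannot show whether the share of each sex differed. None of the 4 genes passed (0 at an unadjusted p under 0.05 in edgeR and 0 in DESeq2), and their part in the calls was not tested.

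The members also lay next to each other on the chromosomes. Counting neighbours in the BDGP6 annotation, 8 pairs of higher genes and 18 pairs of lower genes were adjacent, a description for which no chance level was computed. On chromosome arm 2R, *Cyp9b1*, *Cyp9b2*, *CR44443*, *Spn43Aa*, *Spn43Ab* and *Spn43Ad* were lower within positions 7127838 to 7155424. The run was not unbroken, since *Spn43Aa* and *Spn43Ab* were not adjacent among the tested genes. *Spn43Aa*, a serine protease inhibitor, lay at 253, 208 and 174 CPM in *gfp*, at 122, 68.7 and 72.0 in *hop* and at 87.2, 93.6 and 60.1 in *Myc*. The supercompetitors overlapped each other and stayed below the control, and the pooled log2 fold change was -1.34 ± 0.20 (adjusted p = 0.00687), with exon bases shared with *CG12828*.

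The other lower genes of the *Spn43Aa* stretch had pooled log2 fold changes of -1.06 (*Spn43Ab*), -0.96 (*Spn43Ad*), -1.16 (*Cyp9b1*), -1.14 (*Cyp9b2*) and -1.48 (the noncoding *CR44443*). The tetraspanin genes *Tsp42Eq* (-1.88) and *Tsp42Er* (-1.54) lay at 7062108 to 7066113 of the same arm. Families were chosen after their values were seen, and 3 of 25 serpins and 2 of 30 tetraspanins were counted as lower, against 1.05% of all tested genes. On 3R, the noncoding *alphagamma-element:CR32865* (1.30) and *Hsp70Bbb* formed a pair of higher genes. *Hsp70Bc* and *Octbeta3R* (1.46), an octopamine receptor gene, formed a separate pair, all between positions 12475336 and 12548229.

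Other genes at the top of the higher list include several with few counts in the control. *CG30428* (2R 25251927 to 25254535) had 0 counts in all 3 *gfp* libraries, 178 over the *hop* libraries and 129 over the *Myc* libraries. With a floor of 3 counts summed over the control libraries, its level in *hop* was at least 56.4-fold higher and its level in *Myc* at least 42.0-fold higher. The bound covers counting error only, and the gene shares bases with an annotated INE-1 element. *CG3397* lay at 0.366, 0.172 and 0 CPM in *gfp*, at 3.72, 5.65 and 2.80 in *hop* and at 2.68, 3.80 and 5.38 in *Myc*, so both genotypes reached the same range. The pooled log2 fold change was 4.39 ± 0.70 (adjusted p = 0.00523).

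*beat-IV*, an immunoglobulin-domain gene of the beaten path family, had a pooled log2 fold change of 2.82 ± 0.59, and *CG31664* had 3.72 ± 0.97, lost in 7 of the 9 fits with 1 library left out. *His2B:CG33868* (2.19 ± 0.35) is 1 of many near-identical histone genes and is uncertain. *Mks1* (1.67 ± 0.39), of the ciliary transition zone, *CG12592* (1.85 ± 0.39) and *CG14946* (now *firl*, 1.38 ± 0.24), which lay at 16.3 to 23.1 CPM in *gfp*, completed the 12.

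Whether the genotypes differed from each other was tested without the *gfp* libraries in the contrast. Of the 116 higher genes, 43 differed between *hop* and *Myc* at an adjusted p under 0.05 (37.1%). Of the 134 lower genes, 27 did (20.1%), and of all tested genes 6.55% did. These genes were chosen on the average of the same *hop* and *Myc* libraries. A large change in either genotype, with any value of the same sign in the other, could be enough. Nothing is therefore read from these shares being above that of all tested genes. Among the higher genes, 22 were farther from the control in *hop* and 21 in *Myc*. Among the lower genes 26 of 27 were farther in *hop*, the exception being *Ect3*, a beta-galactosidase gene, which lay at 49.9, 35.9 and 46.9 CPM in *gfp*, at 45.9, 46.1 and 40.0 in *hop* and at 6.97, 12.7 and 7.17 in *Myc*. The *hop* libraries of *Ect3* lay inside the control range, so its place among the 134 rests on the *Myc* libraries and on a *hop* value of -0.01.

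Genes farther in *Myc* included *Pdp1* (hop minus Myc -0.86, 95% interval -1.22 to -0.50, adjusted p = 0.00805), *Sam-S* (-0.84, -1.06 to -0.61), *sesB* (-0.62, -0.86 to -0.38), *Mpcp* (-0.47, -0.71 to -0.22) and *Nop60B* (-0.50, -0.76 to -0.24). *Hsp60*, a mitochondrial chaperonin gene, *RFeSP*, the Rieske protein of complex III, and *CG6439* were farther in *Myc* too, at -0.73, -0.61 and -0.55. Farther in *hop* were *chinmo* (1.86, 1.41 to 2.31), *Ilp8* (1.60, 1.04 to 2.15), *Hr38* (1.16, 0.78 to 1.54) and *CG3523* (0.54, 0.24 to 0.83). Without *Myc* 1, 126 of the genes then counted differed.

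For 73 higher and 107 lower genes the difference did not pass, which does not show that the genotypes acted alike. The intervals were narrow for *mld* (0.07, -0.21 to 0.36), *Desat1* (-0.10, -0.35 to 0.16) and *mnd* (-0.22, -0.54 to 0.09), and wide for *CG3397* (0.03, -1.03 to 1.10) and *Nlg1* (0.12, -1.75 to 1.99).

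**Figure D5:**
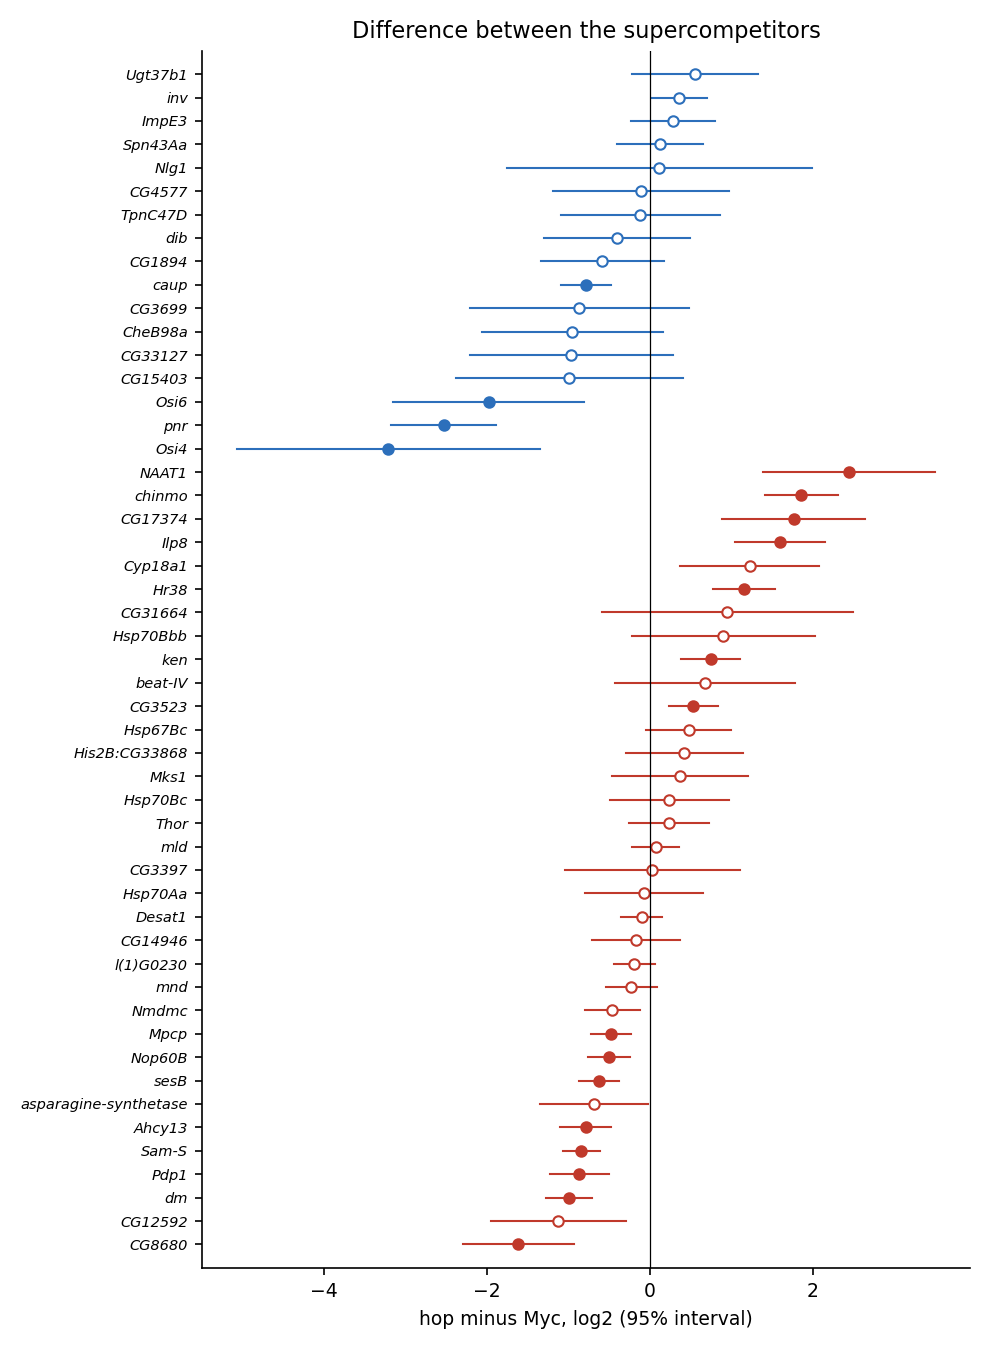
Difference between *hop* and *Myc* on the log2 scale with its 95% interval (x axis) for 51 of the named genes counted as higher (red) or lower (blue) in both, filled where the difference passed at an adjusted p under 0.05. Intervals of *mld*, *Desat1* and *mnd* span 0 narrowly, *chinmo* and *Ilp8* lie to the right, and *Pdp1*, *Sam-S* and *pnr* lie to the left.

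At the adjusted p threshold, *CG9380* (0.04959) and *CR43974* (0.04959) lay just inside and *CG18744* (0.05024) and *Vmat* (0.05011) just outside. At the fold threshold, *RpL7* (log2 0.586) and *caup* (-0.588) lay just inside and *Ef1beta* (0.583) and *Eip78C* (-0.559) just outside.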

How the data were processed

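For the raw counts, the authors aligned paired reads to dm6 with STAR, removed duplicates with Picard and counted exon reads per gene with HTSeq. Which versions, strand setting and annotation release applied was not given in the sources used here. Labels describe polyadenylated RNA and the study's methods total RNA, which was not resolved. The deposited normalized signal values are the authors' counts divided by a size factor for each library. Multiplied back, 100% of those above 0 lay within 0.02 of a whole read, and these reads served as an alternative. Of 15974 symbols shared with the raw counts, 12111 had identical reads in all 9 libraries, so the recovered reads are not the raw counts throughout.

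Genes kept by filterByExpr (12741 of 16492 symbols) entered 1 quasi-likelihood fit of all 9 libraries (edgeR 4.0.16, R 4.3.3), scaled by TMM and with a robust prior. There were 6 residual degrees of freedom, and p-values were adjusted by Benjamini-Hochberg over all genes tested. The contrast gave *hop* and *Myc* a weight of 0.5 each and subtracted *gfp*. Intervals are at 95%. The common dispersion was 0.0488. The script was tested on simulated data. A list member passed where the adjusted p was under 0.05 and both genotypes had the same sign, whatever its fold. Lists are described by counts and medians, with no set test.

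The members, lists and tests were chosen with earlier results of these data known. Genes named are the targeted genes, the markers *Pdp1*, *mnd*, *mld* and *CG3523*, *Mpcp* and *Nop60B*, the 12 higher and 12 lower whose smaller fold change of the pair was largest (with non-overlapping libraries and averaging 1 CPM or more), and up to 4 passing members of each list. Other genes were named after their values were seen. Of the symbols in the raw table, 11947 matched the BDGP6 annotation as they stand, 4230 as synonyms and 315 did not match. Promoter motifs and sequences were not analysed here. Alternatives tried were other scalings (RLE, upper quartile), low-count filters, tools (DESeq2, limma-voom, glmTreat), thresholds, a replicate block, both supercompetitors as 1 group, the recovered reads and leaving out each library. Alternatives added after seeing the data were a non-robust prior and leaving out *gfp* 1 and *Myc* 1 together. Replicate numbers were not used as pairs. Reads carry no molecular identifiers, and the sequencing pools are not assigned to libraries.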

Additional observations from a re-analysis of the deposited data

Results flagged for a closer look

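The genotypes differed from each other, in the test of *hop* against *Myc* itself, for the genes listed here. The values are hop minus Myc on the log2 scale. Differences above 0 were 4.32 for *hop*, 2.44 for *NAAT1*, 1.86 for *chinmo*, 1.77 for *CG17374*, 1.6 for *Ilp8*, 1.16 for *Hr38*, 0.749 for *ken* and 0.537 for *CG3523*. Among higher genes, differences below 0 were -1.61 for *CG8680*, -0.986 for *dm*, -0.862 for *Pdp1*, -0.837 for *Sam-S*, -0.783 for *Ahcy13*, -0.621 for *sesB*, -0.501 for *Nop60B* and -0.468 for *Mpcp*. *path* (-0.72) and *RpL9* (-0.425) passed the adjusted p as higher but fell short of 1.5-fold, so they were not counted. Among lower genes they were -3.2 for *Osi4*, -2.53 for *pnr*, -1.98 for *Osi6* and -0.782 for *caup*, each lower in *hop*. Of other lower genes mentioned above, *Rim* (-1.09) and *CR43974* (-1.28) were lower in *hop* and *Ect3* (2.31) was lower in *Myc*, and of other higher genes *CG6439* (-0.548), *RFeSP* (-0.605), *Hsp60* (-0.729) and *CG4230* (-1.45) were higher in *Myc*. Other genes mentioned but not counted in both were *C15* (-3.2), *Vmat* (-2.09), *CG17684* (2.63), *Cpr49Ah* (2.35), *SK* (3.17), *brk* (1.93) and *ci* (0.429).

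The normalized table lists 617 tested symbols that the raw table does not, and in the reads recovered from it 16 of these passed the same rule (2.59%), most of them genes that the raw table lists under another name. The 3 without such a match carry the CR prefix of noncoding genes. *CR45909* had 33, 17 and 21 reads in *gfp*, 78, 56 and 93 in *hop* and 80, 33 and 36 in *Myc* (pooled log2 fold change 1.477), so all supercompetitor libraries but *Myc* 2, which equalled *gfp* 1, had more reads than the control. *CR45922* had 13, 14 and 24 reads in *gfp*, 230, 90 and 153 in *hop* and 12, 14 and 33 in *Myc* (1.833), and *Myc* overlapped the control. *CR46086* had 16, 20 and 25 reads in *gfp*, 1, 0 and 0 in *hop* and 7, 12 and 29 in *Myc* (-2.803), which rests on the *hop* libraries.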

How the results depend on the processing

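The counts of higher genes, lower genes and members that differ between *hop* and *Myc* (116, 134 and 70) were within 1.5 times under RLE scaling, no filter, at least 10 counts in every library, the recovered reads and the non-robust prior, and under upper quartile scaling, which gave 79 higher and 162 lower genes (32.8% higher, against 46.4%). limma-voom gave 113 and 216 (34.3% higher). They were 221, 240 and 141 with DESeq2, 5, 1 and 2 with glmTreat against 1.5-fold, and 4, 5 and 0 with *hop* and *Myc* as 1 group of 6, a fit that takes the difference between genotypes as spread and in which none of the 9 genes counted was among those that differ in edgeR's test of *hop* against *Myc*. The adjusted p alone gave 244, 157 and 105, and a 2-fold threshold gave 39, 70 and 36. Leaving out 1 library gave 11 to 184 higher genes, 4 to 167 lower genes and 7 to 126 that differ. Without *gfp* 1 and *Myc* 1 together the counts were 137, 109 and 139, with 80 and 77 genes shared. No gene named by the rule changed direction under these alternatives, whereas *ACC* (-0.069 to 0.0525) and *ATPCL* (-0.0617 to 0.0602), mentioned beside them without passing, turned sign with 1 library left out. Whether same-numbered libraries of different genotypes share more than a number is not stated in the sources used here. Their correlations were -0.14 to 0.392, the highest for *gfp* 1 with *Myc* 1, and *gfp* 1 with *hop* 1 had 0.249. With libraries of other numbers *gfp* 1 had -0.344 to -0.127. Not every library correlated best with its own number (*gfp* 3 with *Myc* 2, 0.219). The replicate block gave 256, 336 and 223.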
